A study of Mus musculus with 18 samples.

Results

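Maturation of the mouse liver after birth was read from the vehicle-injected mice of a study of asparaginase, by comparing gene counts in livers of 8 weeks with those of 2 weeks. The 6 libraries used were all those labelled PBS at these ages, 3 of each age, out of 18 libraries in all. The other 12 libraries were 16-week PBS livers and livers of mice given asparaginase at each of the 3 ages. The mice were of the C57BL/6J strain, with at least 8 generations on that background, and the labels name no other allele or agent for the PBS groups. PBS was injected into the abdomen once a day, 7 times at 2 weeks and 8 times at 8 weeks, and the mice were killed on the afternoon after a morning injection. By the labels, replicates 1 and 2 of 2 weeks were male and replicate 3 female, while replicates 1 and 3 of 8 weeks were female and replicate 2 male. Each group was 3 mice, per the series' design text. Except where a fit of the 6 PBS libraries alone is named, p-values rest on the spread within groups estimated over all 18 libraries, asparaginase livers included. Whether 2 of the 2-week libraries, which held transcripts of both sexes, each hold 1 mouse cannot be told from the counts. Age, the number of injections and the origin of the 8-week livers, which the labels place in a separate experiment, move together and cannot be told apart. The comparison asks how the expression of all measured genes differs between a suckling and a young adult liver.

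At 2 weeks a mouse pup lives on fat-rich milk, its liver is still growing, and the blood formation that fills the fetal liver is ending. Between the ages compared here pups are weaned onto carbohydrate-rich chow, hepatocytes largely stop dividing, fetal genes such as the one for alpha-fetoprotein are silenced, and enzymes of detoxification, bile acid and lipid synthesis reach adult levels. Puberty also falls in this interval. The pattern of growth hormone release then comes to differ between males and females, and many liver genes differ between the sexes with it.

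Counts totalled 26507374, 27263553 and 26928605 in the 2-week PBS libraries and 36173744, 44371476 and 39223007 in the 8-week PBS libraries (replicates 1 to 3, the order of all triplets of values). Levels are in CPM, a gene's count relative to the total of its library after scaling by trimmed mean of M values. The defining hepatocyte transcripts were abundant in all 6 libraries: albumin (Alb) stood at 72630, 68440 and 76360 CPM at 2 weeks and 76620, 45320 and 64930 CPM at 8 weeks. In the 2-week replicates 1 and 2, both labelled male, transcripts of both sexes were present. Xist, the RNA of the inactive X chromosome of females, stood there at 263.5 and 361 CPM beside summed levels of 52.4 and 57.3 CPM for 4 Y-linked genes. The sex of these libraries was therefore not used. The other 4 libraries matched their labels.

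One library stood apart in the comparison itself. Genes were taken that had an adjusted p under 0.05 by edgeR and at least a 2-fold difference by age when 2-week replicate 1 was left out. Their mean log2 levels also had to differ as much in the same direction. The level in replicate 1 was placed on a scale from 0 (the other 2-week livers) to 100 (the 8-week mean). Its median position was 48.8% over 581 genes higher at 8 weeks and 37.8% over 851 genes lower at 8 weeks. Replicates 2 and 3, placed the same way over all such genes, had medians between -19.8% and -2.4%. For them the 0 point included replicate 1, and each library had its own set of genes. These medians are thus no separate measure of how far replicate 1 stood apart. Single lists differed, with replicate 3 at 72.4% over 7 erythroid genes lower at 8 weeks. Replicate 2 stood at 68.6% over 12 skeletal muscle genes higher at 8 weeks. The position of replicate 1 differed between gene groups. It was 124.6% for cholesterol synthesis, 64.9% for cytochromes P450, 49.6% for fetal genes, 12.8% for the major urinary proteins and -6.3% for the cell cycle. Why it stood apart was not tested, and several results that rest on it are given with and without it.

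**Figure D1:**
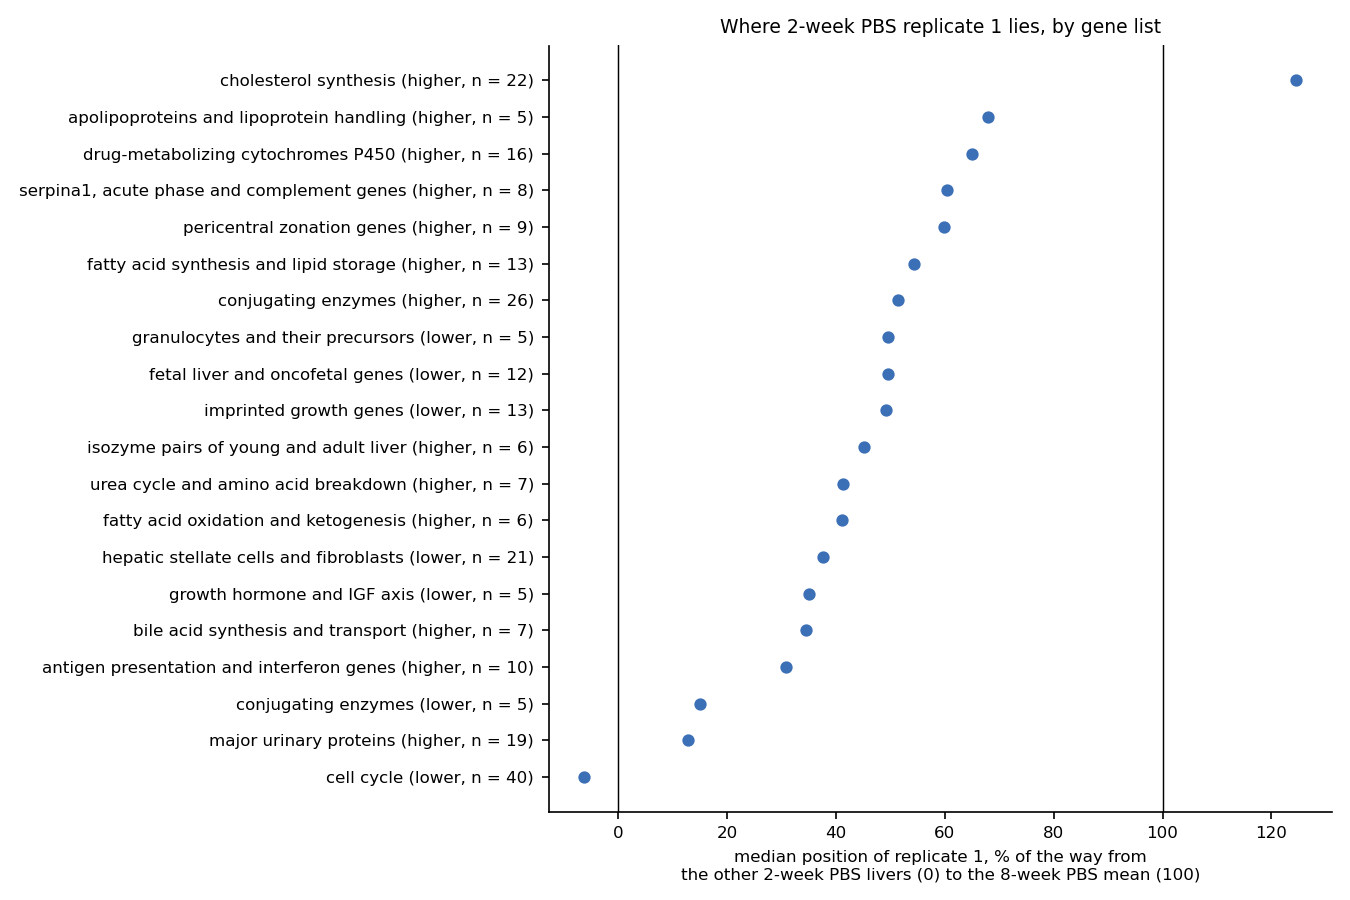
Median position of 2-week PBS replicate 1 for each gene list, in percent of the way from the other 2-week livers (0) to the 8-week mean (100), with the number of genes behind each point. Cell cycle genes lie near 0 (-6.3%), fetal and imprinted genes near the middle (49.6% and 49.1%) and cholesterol synthesis genes beyond 100 (124.6%).

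Of 16213 genes tested, 2232 were higher (13.8%) and 2610 lower (16.1%) at 8 weeks, 4842 genes in all (29.9%), by edgeR's quasi-likelihood test with a Benjamini-Hochberg adjusted p under 0.05. Genes past that threshold are said here to have risen or fallen. The shares of 13.8% and 16.1% are the background for each list count below. In 4053 of the 4842 the 3 libraries of one age did not overlap those of the other. These genes were picked by the test on the same libraries, so this count is a description. With 3 libraries against 3, a gene with no difference separates so with a probability of 0.1. The share over all genes tested is not given here. A change of at least 2-fold was reached by 1911 genes (11.8%), of which 572 rose and 1339 fell. The median log2 fold change over all genes was -0.02. Upper-quartile scaling moved that median to -0.11 and the split to 1618 higher and 3214 lower. All fold changes are 8 weeks minus 2 weeks on the log2 scale ± SE, with the 8-week level set to an even mix of males and females. That mix rests on a sex term fitted to the PBS and asparaginase livers of 8 weeks. It gives the 1 male PBS library of 8 weeks much weight, and the count of changed genes was 2977 without that library. In a fit of the 6 PBS libraries alone, with no sex term, the count was 1700. The count was 2958 without 2-week replicate 2, 3042 without replicate 3 and 5646 without replicate 1. Without both 2-week libraries that held transcripts of both sexes it was 3566, of which 3111 were among the 4842 and none in the opposite direction. Protein-coding genes made up 4505 of the changed genes. In whole liver, fewer cells of a type and less RNA per cell cannot be told apart.

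**Figure D2:**
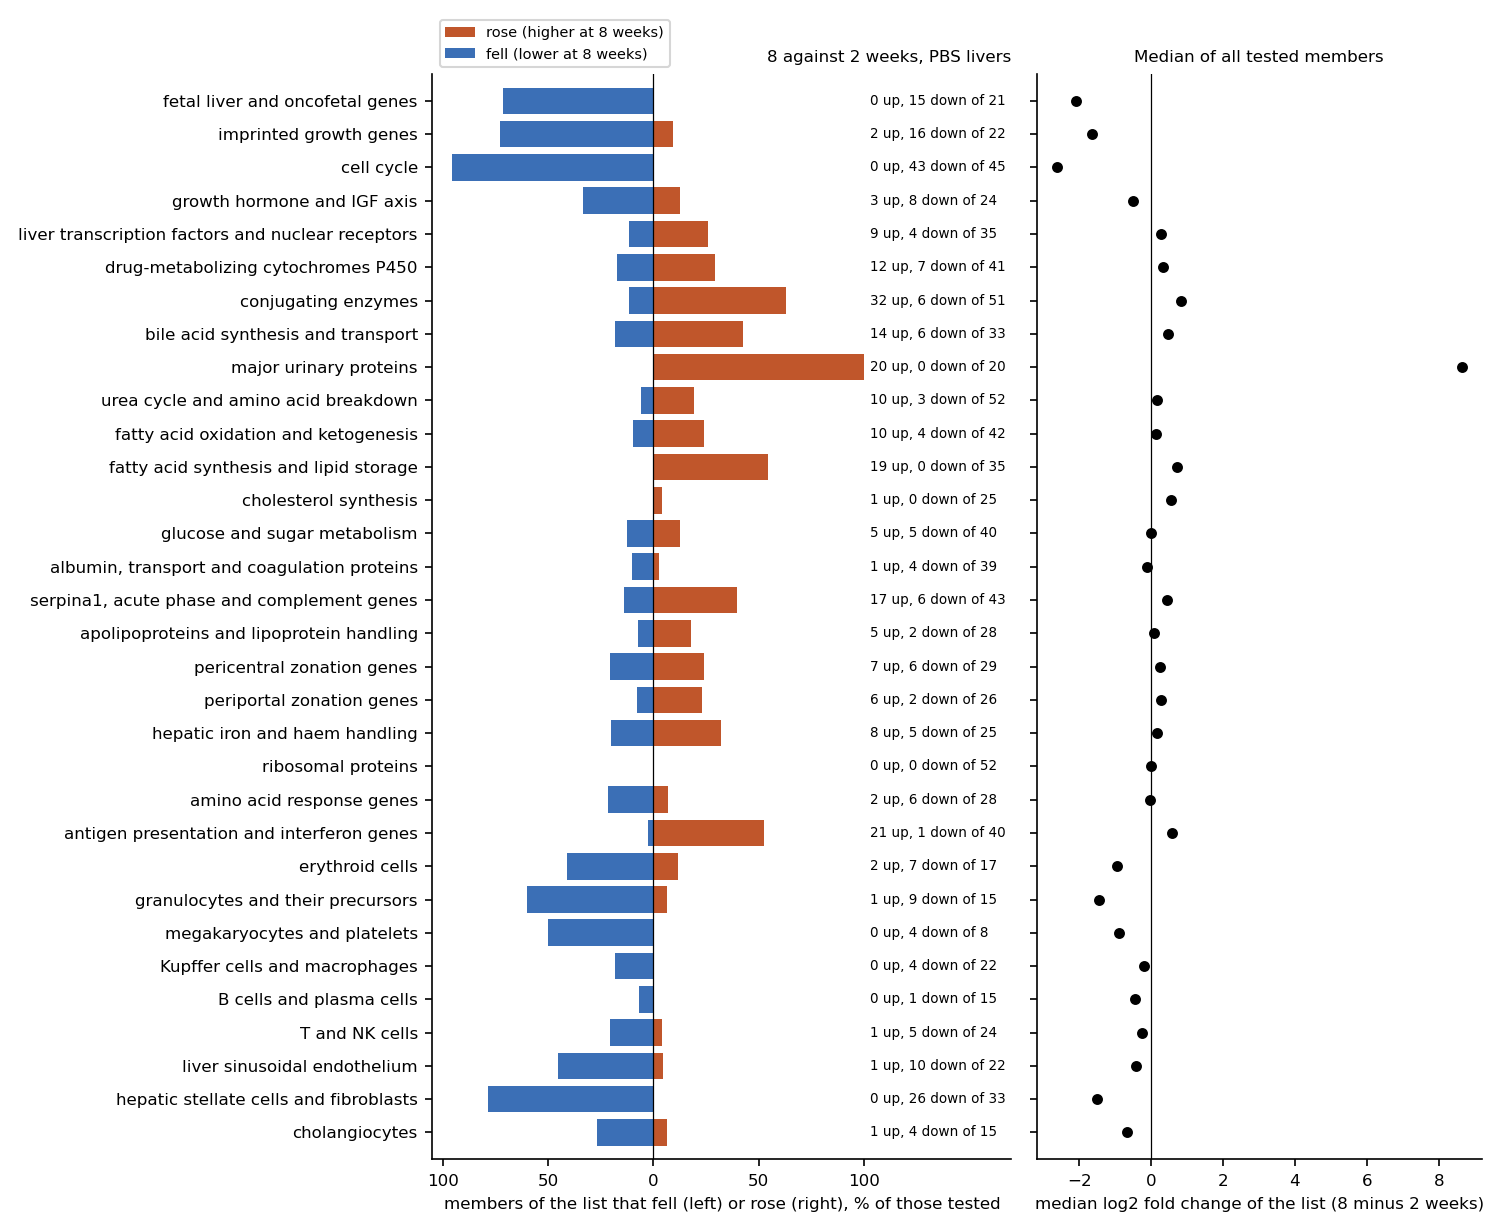
Left, share of the tested members of each gene list that rose (orange) or fell (blue) at 8 weeks in PBS livers, with the counts; right, median log2 fold change of all tested members. Cell cycle (43 of 45 fell), stellate cell and fibroblast (26 of 33 fell) and major urinary protein genes (20 of 20 rose) stand farthest from an even split, and no ribosomal protein gene passed the test.

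Genes that mark the fetal liver, several of which return in liver tumours, were lower in the 8-week livers. Of 21 tested members of this list, 15 fell and 0 rose, and the median log2 fold change was -2.09, against -0.02 over all genes. Afp (chromosome 5, 90490737 to 90508907, GRCm38), which encodes alpha-fetoprotein, the albumin-like carrier of fetal plasma, stood at 3.5, 129.7 and 139 CPM at 2 weeks and 0.957, 1.66 and 1.82 CPM at 8 weeks. Replicate 1 of 2 weeks lay far below its 2 companions but above every 8-week liver, so the ages did not overlap. The log2 fold change was -5.92 ± 0.98 (adjusted p = 7.6e-04), or -6.49 without that replicate. Gpc3, a heparan sulfate proteoglycan of the cell surface, showed the same order of libraries, with 9.69, 53.5 and 70.5 CPM at 2 weeks and 1.59, 1.03 and 1.32 CPM at 8 weeks (-5.18 ± 0.61, adjusted p = 8.4e-05).

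Not every fetal gene placed replicate 1 near the adult livers. Igf2bp3 (chromosome 6, 49085223 to 49214957), an RNA-binding protein of embryonic tissue, stood at 10.8, 9.14 and 7.74 CPM at 2 weeks and 0.0638, 0.0994 and 0.125 CPM at 8 weeks. Replicate 1 was the highest of the 6 libraries, and the means were 9.21 ± 1.51 and 0.096 ± 0.0307 CPM (SD, n = 3), an 88.2-fold fall in the model (-6.46 ± 0.38, adjusted p = 6.6e-07). Midkine (Mdk), a heparin-binding growth factor, fell by 2.56 on the log2 scale, and the small adaptor gene Bex1 by 3.48. The 6 members that did not pass the test were Sox9, Epcam, Krt19, Spp1, Vil1 and Cldn6, of which the first 4 also mark bile duct cells. Zhx2, a repressor known in mouse liver for its part in the silencing of Afp, H19 and Gpc3 after birth, stood at 6.34, 6.08 and 6.05 CPM at 2 weeks and 7.81, 11.1 and 9.89 CPM at 8 weeks. All 8-week livers were above all 2-week livers, and the rise was 0.68 ± 0.11 (adjusted p = 7.5e-04). Zbtb20, another repressor of Afp, did not pass the test (0.57 ± 0.26, adjusted p = 0.10), although it did without 2-week replicate 1 (0.79, adjusted p = 0.044) or 8-week replicate 1 (0.77, adjusted p = 0.0398).

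Imprinted genes, which are expressed from 1 parental copy and many of which govern growth before weaning, fell as well. Of 22 tested, 16 fell and 2 rose, with a median of -1.65. H19, a noncoding RNA made next to Igf2 on chromosome 7, stood at 172, 2710 and 3999 CPM at 2 weeks and 40.3, 10.7 and 54.8 CPM at 8 weeks (-6.73 ± 1.00, adjusted p = 3.6e-04). Igf2, the fetal insulin-like growth factor, stood at 1.81, 362 and 373 CPM and 0.733, 0.762 and 1.12 CPM (-8.35 ± 1.39, adjusted p = 7.7e-04). In both genes replicate 1 of 2 weeks lay between its companions and the adult livers. Grb10, an adaptor that restrains insulin and IGF receptors, fell by 3.73 from 23.5, 54.6 and 59.6 CPM to 3.06, 3.18 and 5.2 CPM. Cdkn1c, an inhibitor of cyclin-dependent kinases, fell by 3.19, the zinc finger gene Plagl1 by 2.72 and Mest by 2.47. The 2 that rose were Zrsr1, a splicing factor gene (0.62 ± 0.11), and the amino acid transporter gene Slc38a4 (0.63 ± 0.19). The Slc38a4 call was lost without 2-week replicate 2 (0.61), 2-week replicate 3 (0.49) or 8-week replicate 2 (0.27), and the count that rose was then 1. H19, Igf2, Cdkn1c, Plagl1, Mest and Zrsr1 overlap exons of other genes, and since the use of strand in counting is not given in the sources used here, reads of the partners cannot be told apart.

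**Figure D3:**
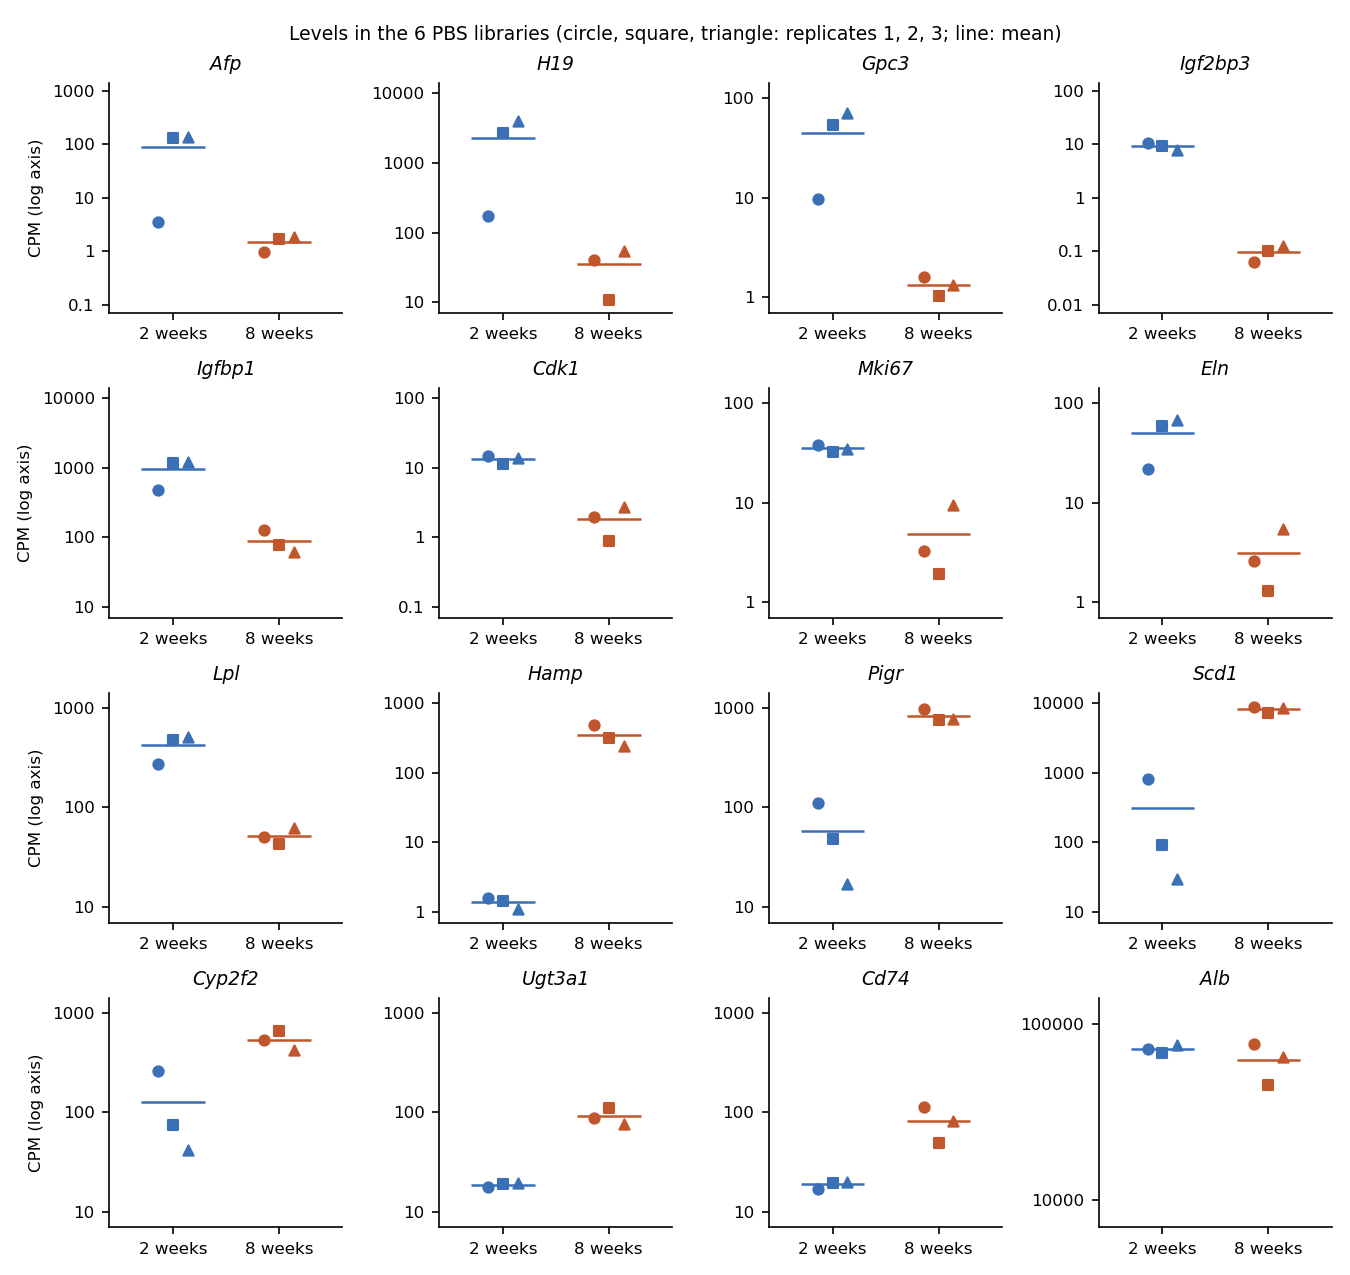
Level of 16 genes in each PBS library (CPM, log axis), with circle, square and triangle for replicates 1, 2 and 3 and a line at the mean of the 3 libraries of an age. Replicate 1 of 2 weeks lies apart from its companions for Afp, H19, Gpc3, Scd1, Pigr and Cyp2f2, and with them for Igf2bp3, Cdk1, Mki67, Ugt3a1, Cd74 and Alb.

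Genes of DNA replication and mitosis were lower at 8 weeks with hardly an exception, and here the 3 livers of 2 weeks were alike. Of 45 cell cycle genes, 43 fell and 0 rose, with a median of -2.62, and between 41 and 44 fell when any 1 library was left out. Their summed level was 509, 498 and 568 CPM at 2 weeks and 172, 108 and 263 CPM at 8 weeks. Cdk1, the kinase that drives entry into mitosis, stood at 14.8, 11.6 and 13.9 CPM at 2 weeks and 1.98, 0.894 and 2.72 CPM at 8 weeks. The ages did not overlap (-3.24 ± 0.30, adjusted p = 2.2e-05). Its partner cyclins fell too, Ccnb1 by 4.11 and Ccnb2 by 3.72 on the log2 scale, as did Mki67, the gene of the proliferation antigen Ki-67, from 38.1, 32.3 and 34.7 CPM to 3.25, 1.92 and 9.41 CPM (-3.40 ± 0.49). Stmn1, which destabilises microtubules, fell by 2.50. The 2 that did not pass the test were the transcription factor gene E2f1 and the cyclin gene Ccnd1, which acts at the start of the cycle. Ccnd1 stood at 46.8, 47 and 53.9 CPM at 2 weeks and 48.5, 14.5 and 87.8 CPM at 8 weeks (-0.44 ± 0.43, adjusted p = 0.46), and the 8-week male had the lowest level. In the test of sex at 8 weeks, given below, 22 of the 45 genes were higher in females and 0 in males. Over all genes tested the shares were 4.19% and 2.38%. Without 8-week asparaginase replicate 1, only 15 of all genes tested were higher in females, fewer than the 22 given here.

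The promoters of these genes are shown because the genes fell together. Many genes of mitosis are known to carry CCAAT boxes, bound by NF-Y, and the motif TTTGAA, bound by the DREAM complex that represses them in resting cells. In the 250 bases before the start site, CCAAT was found on either strand in 29 of the 37 cell cycle genes that have an entry in the RefSeq promoter table (78.4%), against 37.5% of all 27025 genes of that table and 40.1% of the 11468 tested here. TTTGAA was found in 10 of the 37 (27.0%), against 18.3% of all genes and 13.5% of those tested. A match is a description of these letters, not a binding site. The 150 bases that end at the start site of Cdk1, Ccnb1 and Ccnb2 follow, 5′ to 3′ on the strand of the gene (minus in each), from RefSeq on GRCm38.p6, with matches in capitals on either strand (ATTGG is CCAAT on the other strand).
Cdk1 chr10:69352913-69353062: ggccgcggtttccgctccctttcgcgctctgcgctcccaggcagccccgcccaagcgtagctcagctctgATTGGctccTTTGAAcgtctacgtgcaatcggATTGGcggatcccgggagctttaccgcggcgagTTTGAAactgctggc
Ccnb1 chr13:100786487-100786636: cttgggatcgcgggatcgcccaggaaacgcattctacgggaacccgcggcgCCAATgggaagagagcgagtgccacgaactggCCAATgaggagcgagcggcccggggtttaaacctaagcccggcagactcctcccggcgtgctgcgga
Ccnb2 chr9:70421555-70421704: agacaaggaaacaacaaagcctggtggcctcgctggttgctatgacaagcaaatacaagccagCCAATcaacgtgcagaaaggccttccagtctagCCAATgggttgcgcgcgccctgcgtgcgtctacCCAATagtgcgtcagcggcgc
Cdk1 holds CCAAT matches that begin 80 and 48 bases before the start and TTTGAA matches that begin 71 and 15 bases before it. Ccnb1 holds CCAAT at 99 and 67 bases and Ccnb2 at 87, 54 and 21 bases before the start, with no TTTGAA in the bases printed. No match of one motif overlaps a match of the other in these 3 sequences.

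In the growth hormone axis Ghr and Igfals rose while the IGF-binding protein genes Igfbp1, Igfbp2 and Igfbp3 fell. Of 24 genes of this axis, 3 rose and 8 fell (against 13.8% and 16.1% of all genes tested), with a median of -0.50. Ghr, the growth hormone receptor, stood at 281, 251 and 228 CPM at 2 weeks and 355, 464 and 367 CPM at 8 weeks (0.69 ± 0.15, adjusted p = 0.0048), and Igfals, the subunit that holds IGF-1 in long-lived complexes in blood, rose by 0.99 ± 0.23. The third was Egfr, the receptor of epidermal growth factor (1.65 ± 0.50), whose call was lost without 2-week replicate 2 (1.43), 2-week replicate 3 (1.40) or 8-week replicate 3 (1.11) and whose estimate was 2.51 without 8-week replicate 2. Igfbp1, an IGF-binding protein that fasting raises, stood at 474, 1185 and 1228 CPM and 127, 77.5 and 60.9 CPM (-3.54 ± 0.44, adjusted p = 1.1e-04). The ages did not overlap, and replicate 1 was the lowest of the 2-week livers. Igfbp2 fell by 1.93 and Igfbp3 by 1.73. Igf1, the main target of growth hormone, did not pass the test (0.43 ± 0.21, adjusted p = 0.13), but did without 8-week replicate 2 (0.80, adjusted p = 0.028). The count that fell was 5 without 2-week replicate 2, 2-week replicate 3 or 8-week replicate 1.

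Of 35 liver transcription factors tested, 9 rose and 4 fell, with a median of 0.27. Over all genes tested, 13.8% rose and 16.1% fell. Cebpa, which keeps hepatocytes out of the cell cycle and drives metabolic genes, rose by 0.61 ± 0.14, from 212, 152 and 162 CPM to 266, 279.5 and 251 CPM. Hnf4a, the factor that defines hepatocytes, did not pass the test (0.30 ± 0.14, adjusted p = 0.12). The 4 that fell included Ahr, a receptor of aromatic pollutants, and the xenobiotic receptors Nr1i2 and Nr1i3, with estimates between -0.54 and -0.41. The calls of these 3 were each lost in 10 or more of the 18 fits that leave out 1 library. The number that rose was 5 without 2-week replicate 2, 4 without replicate 3 and 13 without replicate 1, and the number that fell was between 1 and 6 when 1 library was left out.

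The largest rise in share of all counts belonged to the major urinary proteins, small lipocalins that carry pheromones and that the liver secretes for excretion in urine. All 20 tested members rose, with a median of 8.64. They took 0.212%, 0.136% and 0.072% of all counts in the 2-week libraries and 22.8%, 43.0% and 20.7% in the 8-week libraries. The male of 8 weeks had the highest share, and the 2-week replicate 1 the highest of its age. Since the copies are nearly identical, the sum is firmer than the value of any 1 copy. Mup5, one of the more divergent copies, stood at 1.19, 0.651 and 0.444 CPM at 2 weeks and 275, 655 and 204 CPM at 8 weeks (9.21 ± 0.86, adjusted p = 2.2e-05). In the model without the Mup genes 4846 genes changed, 4751 of them among the 4842 and in the same direction.

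Among other secreted proteins, the classical plasma carriers and clotting factors mostly did not pass the test. Of 39 albumin, transport and coagulation genes, 1 rose and 4 fell, with a median of -0.11, and Alb did not pass the test (-0.34 ± 0.22, adjusted p = 0.26). Serpina7, the thyroxine-binding globulin, fell from 46.4, 51.5 and 72.1 CPM to 18.4, 20.7 and 19.3 CPM (-1.55 ± 0.34, adjusted p = 0.0047). Ahsg, the fetuin of fetal plasma, fell by 1.28 from 16380 ± 5671 to 6961 ± 1775 CPM (SD, n = 3), a call that was lost without 8-week replicate 2 (-0.88, adjusted p = 0.074). The only riser was Azgp1, a fat-mobilising plasma protein (0.52 ± 0.16), and its call was lost without any of 4 libraries, with adjusted p up to 0.095. Leaving out 1 library moved this list between 0 and 4 risers (4 without 2-week replicate 1, 0 without 2-week replicates 2 or 3 or 8-week replicates 1 or 2) and between 1 and 8 fallers (1 without 8-week replicate 2, 2 without 2-week replicate 3, 8 without 8-week replicate 1).

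Of 43 alpha-1-antitrypsin, acute phase and complement genes, 17 rose and 6 fell (against 13.8% and 16.1% of all genes tested), with a median of 0.45. The number that rose was 10 without 2-week replicate 2 and 11 without 8-week replicate 1. The number that fell was 3 without 2-week replicate 3 or 8-week replicate 2. With no sex term 9 rose and 4 fell, and in a fit of the 6 PBS libraries alone 4 rose and 3 fell. C9, which forms the pore of the membrane attack complex, stood at 45.9, 33.1 and 34.5 CPM at 2 weeks and 184, 458 and 204 CPM at 8 weeks (2.95 ± 0.28, adjusted p = 2.4e-05). C6, of the same complex, stood at 6.61, 12 and 11.9 CPM and 19, 177 and 23.9 CPM (2.62 ± 0.24), a call lost with no sex term (adjusted p = 0.083) and in the 6 libraries alone (adjusted p = 0.065). In both genes all 8-week livers lay above all 2-week livers and the male was highest. C8b rose by 1.43 ± 0.28. Serpina3n, an acute phase inhibitor, fell by 1.35 from 522, 514 and 714 CPM to 254, 232 and 218 CPM.

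Enzymes of detoxification moved in both directions, gene by gene. Of 41 cytochromes P450 of drug metabolism and their reductase, 12 rose and 7 fell, with a median of 0.34. Among all genes tested, 13.8% rose and 16.1% fell. Without 2-week replicate 1 the number of this list that rose was 19. Between 2 and 8 weeks, copies of the Cyp3a cluster moved in opposite directions. Cyp3a16, a form of the young liver, stood at 42.8, 165 and 220.1 CPM at 2 weeks and 6.95, 5.76 and 4.54 CPM at 8 weeks (-4.58 ± 0.67, adjusted p = 3.3e-04). Cyp3a11, the chief adult form, stood at 3690, 2080 and 1337 CPM and 5549, 5691 and 4406 CPM (1.21 ± 0.31, adjusted p = 0.0097). Replicate 1 was the nearest to the adult livers in both genes. Cyp2c38 rose from 1.19, 0.624 and 0.361 CPM to 113, 36.1 and 72.8 CPM (6.43 ± 0.59), Cyp2c67 by 2.64 ± 0.36 and Cyp2c23 by 1.62 ± 0.19. Cyp2a22 fell from 305, 354 and 322 CPM to 90.4, 29.6 and 50.9 CPM (-2.87 ± 0.26). Cyp2e1, which oxidises ethanol and acetaminophen, did not pass the test (0.39 ± 0.16, adjusted p = 0.082) and passed without 2-week replicate 1 (adjusted p = 0.049). P450 genes lie in clusters of close copies, and how shared reads were assigned is not given in the sources used here.

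Conjugating enzymes, which attach glucuronic acid, sulfate or glutathione to drugs and steroids, rose more widely. Of 51 tested, 32 rose and 6 fell, with a median of 0.83. Ugt3a1, a glycosyltransferase, stood at 17.6, 19.1 and 19.6 CPM at 2 weeks and 87, 111 and 76.3 CPM at 8 weeks. The 2-week livers agreed closely and lay far below every 8-week liver, a 5.1-fold rise (2.35 ± 0.11, adjusted p = 4.4e-08). Among glucuronosyltransferases, Ugt2b38 rose by 2.01 ± 0.19, Ugt2a3 by 1.99 ± 0.21 and Ugt2b5 by 1.91 ± 0.21. All 6 that fell were sulfotransferases, an enzyme class of which other members rose. The number that fell was 1 with no sex term and 2 in a fit of the 6 PBS libraries alone. Sult2a1, a hydroxysteroid sulfotransferase, stood at 862, 832 and 826 CPM at 2 weeks and 65.8, 0.0994 and 6.32 CPM at 8 weeks (-7.82 ± 0.80, adjusted p = 3.9e-05), and the male had the lowest level. Its copies Sult2a2 (in the list) and Sult2a4 and Sult2a5 (outside it) fell by 6.56, 7.07 and 7.13. With no sex term and in the 6 libraries alone, adjusted p was 0.10 and 0.068 for Sult2a1, 0.36 and 0.19 for Sult2a2, and 0.12 and 0.082 for Sult2a5, so these calls were lost in both. That of Sult2a4 was lost with no sex term (adjusted p = 0.081). Sult2a6 had 609 counts over the 2-week libraries and 0 over the 8-week libraries, so that with the 8-week group set to its floor of 3 counts its log2 fold change is -7.60 or lower. Its call was lost without 8-week replicate 2 (adjusted p = 1).

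Bile acid genes rose and fell at different steps. Of 33 tested, 14 rose and 6 fell (against 13.8% and 16.1% of all genes tested), with a median of 0.47. Without 8-week replicate 2 the number that rose was 8. Cyp7a1, the rate-limiting enzyme of the classic pathway, stood at 322, 123 and 82 CPM at 2 weeks and 86.2, 358 and 98.7 CPM at 8 weeks. Both ages spread widely and overlapped (-0.03 ± 0.52, adjusted p = 0.97). Enzymes of the alternative pathway rose: Cyp27a1, the sterol 27-hydroxylase, from 194, 115 and 88.3 CPM to 392, 378 and 296 CPM (1.47 ± 0.24), and Cyp7b1, the oxysterol 7-alpha-hydroxylase, from 6.04, 3.25 and 2.58 CPM to 25.2, 159 and 19.1 CPM (3.90 ± 0.41). Cyp39a1, which hydroxylates another oxysterol, fell from 82.8, 115 and 108 CPM to 26.5, 27.9 and 24.2 CPM (-1.87 ± 0.23, adjusted p = 9.7e-05). Cyp8b1, which decides the share of cholic acid, rose by 1.65 ± 0.34, a call lost without 8-week replicate 2 (1.32, adjusted p = 0.054). Among transporters, the uptake carrier Slco1a1 rose from 5.57, 7.08 and 4.02 CPM to 107, 484 and 247 CPM (6.37 ± 0.80), while Slco1a4 fell by 1.18 and Slc51b, a subunit of the basolateral exporter, by 3.16. Slc10a2, the apical sodium-dependent carrier best known from ileum and bile duct, was outside this list and stood at 0.0889, 0.0542 and 0 CPM at 2 weeks and 3.67, 8.05 and 6.49 CPM at 8 weeks, a 129-fold rise in the model (7.01 ± 0.42, adjusted p = 7.5e-07).

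Genes of fatty acid synthesis, the pathway that a carbohydrate diet raises, were higher at 8 weeks. Of 35 tested, 19 rose and 0 fell, with a median of 0.71, and their summed level was 4772, 3124 and 3071 CPM at 2 weeks and 14240, 12710 and 13960 CPM at 8 weeks. Most of the 8-week sum was Scd1 (chromosome 19, 44394455 to 44407879), the desaturase that makes oleic acid, at 814, 90.04 and 29.4 CPM at 2 weeks and 8826, 7192 and 8527 CPM at 8 weeks. The adult livers were alike, whereas the 2-week livers spread widely with replicate 1 highest. Its log2 fold change was 4.66 ± 1.02 (adjusted p = 0.0044) and 7.03 without replicate 1. Fasn, the fatty acid synthase, stood at 271, 60.4 and 38.5 CPM and 481, 427 and 493 CPM (1.93 ± 0.53, adjusted p = 0.015). The Fasn estimate was 3.24 without 2-week replicate 1, and the call was lost without 2-week replicate 2 (1.59, adjusted p = 0.072) or 8-week replicate 2 (2.13, adjusted p = 0.057). Scd2, Cd36 and Fitm1 rose with less spread at 2 weeks. The desaturase gene Scd2 stood at 11.2, 9.98 and 12.8 CPM and 38.2, 52.6 and 57 CPM (2.10 ± 0.21), the fatty acid carrier Cd36 at 31.5, 36.7 and 27.6 CPM and 143, 91.5 and 106 CPM (1.70 ± 0.22), and the lipid droplet gene Fitm1 rose by 2.12 ± 0.22. Scd4, a further desaturase, rose from 2.04, 0.325 and 0.305 CPM to 19.96, 32 and 32.6 CPM (5.00 ± 0.58, and 6.45 without 2-week replicate 1). Lpl, the lipoprotein lipase that clears milk fat from blood and is shut off in adult hepatocytes, moved the other way, from 270.5, 478 and 514 CPM to 50.7, 43 and 61.7 CPM (-3.19 ± 0.41, adjusted p = 1.5e-04).

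The reading of cholesterol synthesis depended on 2-week replicate 1. Of 25 tested genes, 1 rose and 0 fell, with a median of 0.56, when all libraries were used. The one was Ebp, an isomerase of the sterol nucleus (1.05 ± 0.22). Without replicate 1, all 25 rose and the median was 1.79. The summed level was 6063, 1442 and 964 CPM at 2 weeks, so that replicate 1 exceeded the other pups and every adult, and 4309, 3589 and 3763 CPM at 8 weeks.

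**Figure D4:**
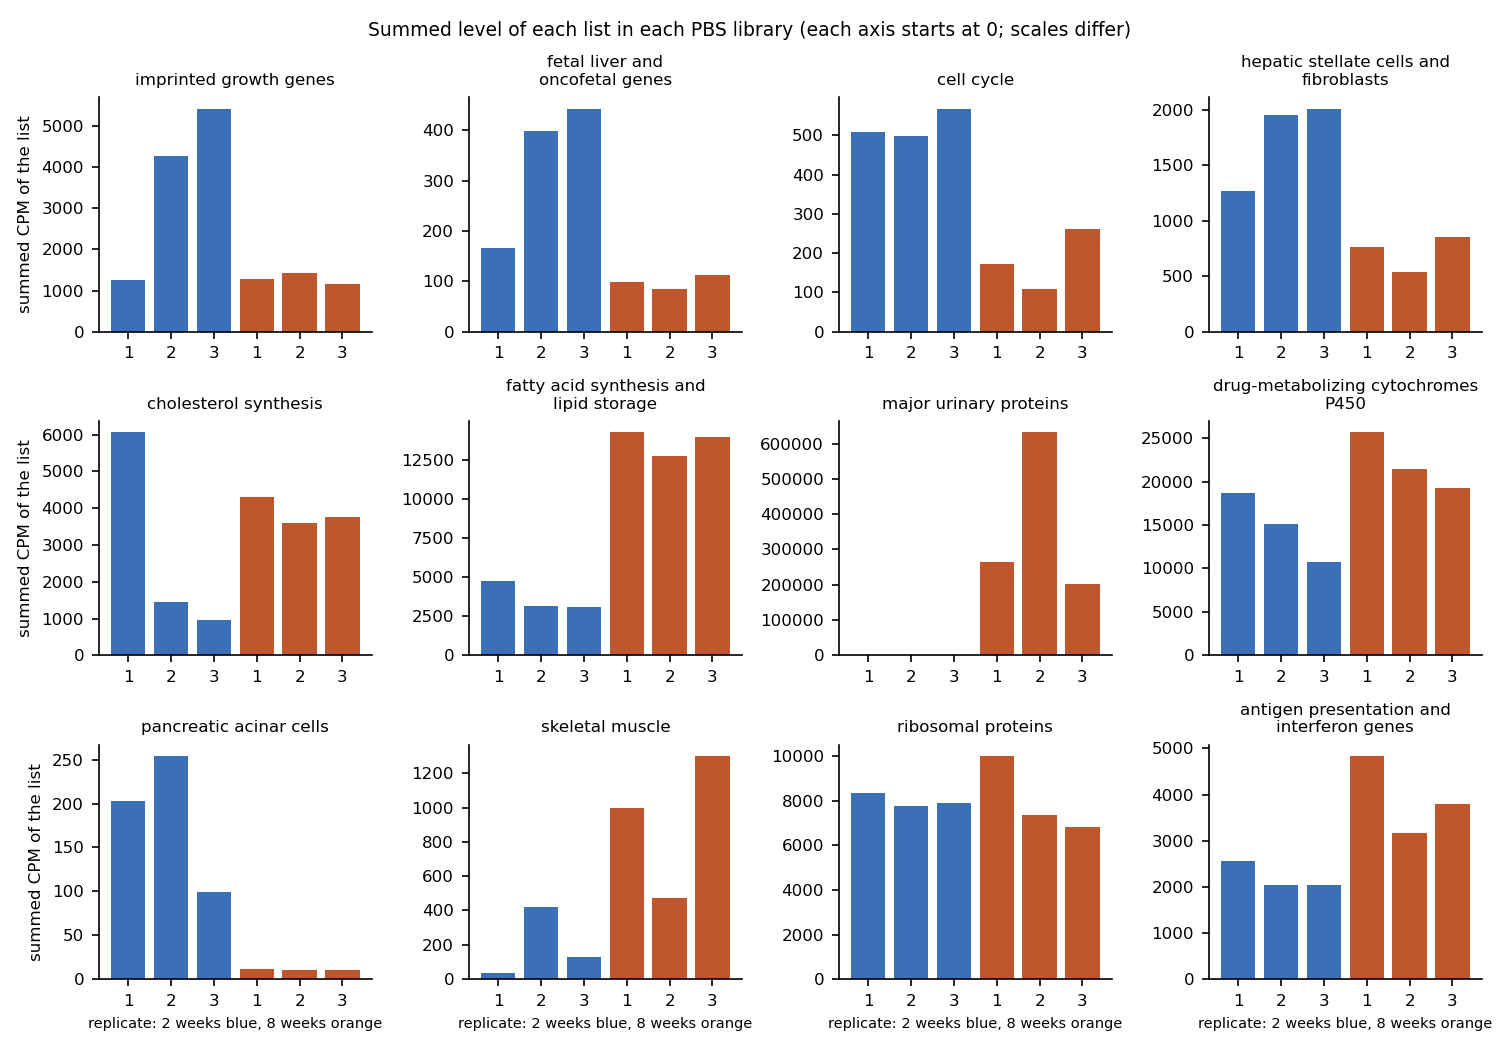
Summed CPM of 12 gene lists in each PBS library, with replicates 1 to 3 of 2 weeks in blue and of 8 weeks in orange; each axis starts at 0 and the scales differ. The cholesterol synthesis sum of 2-week replicate 1 (6063 CPM) exceeds that of every other library shown, while the cell cycle sums of the 3 livers of 2 weeks lie together.

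Genes of fat burning, which milk-fed pups need most, did not fall as a group. Among all genes tested, 13.8% rose and 16.1% fell. Of 42 genes of fatty acid oxidation and ketogenesis, 10 rose and 4 fell, with a median of 0.13, and 3 rose without 8-week replicate 2. Cpt1a, which admits fatty acids to mitochondria, did not pass the test (-0.33 ± 0.18, adjusted p = 0.17) except without 8-week replicate 2 (-0.71, adjusted p = 0.023). The 4 that fell were Ppargc1a, a coactivator of mitochondrial genes (fell by 1.57, from 18.6, 34.2 and 30.3 CPM to 8.74, 9.84 and 10.2 CPM), the omega-hydroxylase Cyp4a31, Bdh1, which makes beta-hydroxybutyrate, and the dehydrogenase gene Acadl. Of 28 apolipoprotein and lipoprotein genes, 5 rose and 2 fell (Lpl and the HDL receptor gene Scarb1), and 3 rose without 2-week replicate 2 or 3 while 4 fell without 8-week replicate 1. Apoc3, an inhibitor of triglyceride clearance, rose from 417, 359 and 424 CPM to 1126, 664 and 724 CPM (1.02 ± 0.17).

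Genes of sugar metabolism rose and fell at no higher shares than all genes tested, of which 13.8% rose and 16.1% fell. Of 40 genes, 5 rose and 5 fell, with a median of -0.01; 10 fell without 2-week replicate 1, and 2 and 3 rose without 2-week replicate 2 and 8-week replicate 2. Galk1, the galactokinase that takes up the galactose of milk sugar, fell from 52.4, 71 and 90.5 CPM to 39.2, 32.7 and 28.9 CPM (-1.09 ± 0.17, adjusted p = 4.6e-04). The liver pyruvate kinase gene Pklr (0.56 ± 0.40, adjusted p = 0.30) and the glucose transporter gene Slc2a2 (-0.26 ± 0.17, adjusted p = 0.28) did not pass the test. Of 52 urea cycle and amino acid breakdown genes, 10 rose and 3 fell, with a median of 0.16; 6 rose without 2-week replicate 2 or 8-week replicate 2, 16 rose without 8-week replicate 3, and 1 fell without 2-week replicate 3. No urea cycle enzyme passed the test with all libraries, and Cps1, its entry step, had -0.26 ± 0.15 (adjusted p = 0.21). Tryptophan breakdown rose at 3 steps, Tdo2 (1.25 ± 0.21), Kynu (1.07 ± 0.14) and Haao (1.08 ± 0.19). Csad, of taurine synthesis, rose from 46.5, 24.3 and 25.8 CPM to 135, 449 and 170.2 CPM (2.98 ± 0.29, adjusted p = 2.4e-05).

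Iron handling held one of the largest changes. Hamp (chromosome 7, 30942368 to 30944032) encodes hepcidin, the liver hormone that blocks iron export from gut and macrophages. It stood at 1.6, 1.41 and 1.08 CPM at 2 weeks and 479, 318 and 242 CPM at 8 weeks, a 256-fold rise (8.00 ± 0.92, adjusted p = 7.0e-05). Every adult liver lay more than 100-fold above every pup. Its neighbouring copy Hamp2 stood at 1.6, 2.74 and 1.83 CPM and 663, 58.8 and 202 CPM (6.31 ± 0.81), and there the adult livers spread more, with the male lowest. Reads shared by the 2 copies, or by Hamp2 and a gene on the opposite strand, cannot be told apart. Tfrc, the transferrin receptor, fell from 82, 175 and 222 CPM to 23.9, 41 and 30.3 CPM (-2.27 ± 0.30, adjusted p = 1.8e-04), and the ferritin light chain gene Ftl1 rose from 1052, 668 and 638 CPM to 1911, 1771 and 1552 CPM (1.15 ± 0.21). Of 25 iron and haem genes, 8 rose and 5 fell (against 13.8% and 16.1% of all genes tested), with a median of 0.17. Without 2-week replicate 3 these counts were 5 and 1, without 8-week replicate 2 they were 5 and 2, and without 8-week replicate 3 the number that fell was 3.

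The upstream sequences of the 2 hepcidin genes are shown because both genes rose and their bases are nearly the same. The 150 bases before each start site, from RefSeq on GRCm38.p6, are given 5′ to 3′ on the strand of the genes (minus), with capitals for GGCGCC, the core of the BMP-responsive element described in the hepcidin promoter, and for the aligned bases of Hamp2. This motif was chosen after the values were seen.
Hamp chr7:30944030-30944179: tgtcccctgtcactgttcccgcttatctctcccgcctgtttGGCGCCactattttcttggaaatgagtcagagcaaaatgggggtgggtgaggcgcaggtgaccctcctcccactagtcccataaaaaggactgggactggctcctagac
Hamp2 chr7:30924182-30924331: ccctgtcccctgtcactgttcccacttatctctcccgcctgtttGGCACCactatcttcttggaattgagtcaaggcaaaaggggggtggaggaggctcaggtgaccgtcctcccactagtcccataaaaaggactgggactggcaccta
With the sequences shifted by 3 bases, 135 of 147 bases were identical. GGCGCC begins 109 bases before the start of Hamp. The aligned bases begin 106 bases before the start of Hamp2 and differ by G4A, counted from 1 at the 5′ end of the motif. GGCGCC occurs 1 time in the 250 bases before Hamp and not in those before Hamp2 (it reads the same on both strands). It was found in 10.8% of all genes of the promoter table and in 18.2% of those tested here. The match is a description, and no value here bears on binding.

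Hepatocytes near the central vein and near the portal vein carry different enzymes, and neither set moved as a whole. Among all genes tested, 13.8% rose and 16.1% fell. Of 29 pericentral genes, 7 rose and 6 fell (median 0.24), and 11 rose without 2-week replicate 1, while 2 fell without 2-week replicate 2 or 3 and 1 without 8-week replicate 2. Glul, glutamine synthetase, which marks the innermost pericentral cells, did not pass the test (0.33 ± 0.21, adjusted p = 0.25), and Oat, the ornithine aminotransferase beside it, rose from 441, 335 and 237 CPM to 1336, 949 and 745 CPM (1.58 ± 0.31, adjusted p = 0.0023). Of 26 periportal genes, 6 rose and 2 fell (median 0.27); 10 rose without 8-week replicate 3, and 0 fell without 2-week replicate 3 or 8-week replicate 1 and 1 without 2-week replicate 2 or 8-week replicate 2. Pigr, the receptor that carries immunoglobulin A into bile, stood at 109.6, 48 and 16.9 CPM at 2 weeks and 980.3, 750 and 777 CPM at 8 weeks. Replicate 1 was the highest of the pups and still far under the adults (3.77 ± 0.53, adjusted p = 2.4e-04). Cyp2f2, a periportal P450, stood at 262, 74.6 and 41.7 CPM and 526, 658 and 421 CPM (2.10 ± 0.48), with 3.21 without 2-week replicate 1 and the call lost without 8-week replicate 2 (1.85, adjusted p = 0.063).

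Connective tissue genes were lower at 8 weeks. Of 33 markers of stellate cells and fibroblasts, 26 fell and 0 rose, with a median of -1.51, and their sum was 1264, 1949 and 2011 CPM at 2 weeks and 759.8, 536 and 856 CPM at 8 weeks. Replicate 1 had the lowest sum of the pups and still exceeded every adult. Eln, which encodes elastin, stood at 21.8, 59.1 and 67.2 CPM at 2 weeks and 2.58, 1.29 and 5.39 CPM at 8 weeks (-4.30 ± 0.54, adjusted p = 1.2e-04). Sparc, a matrix glycoprotein, fell from 199, 246 and 275 CPM to 77.2, 43.6 and 89.8 CPM (-1.99 ± 0.17), Postn, or periostin, by 2.47, and Col1a1, of type I collagen, by 2.85. The 7 that did not pass the test included the defining stellate cell markers Lrat and Des. In the test of sex, 9 of the 33 were higher in 8-week females than males, against 4.19% of all genes tested. That test depended on 8-week asparaginase replicate 1, as given below. The sum of these markers was 999 CPM in that female and 543 and 571 CPM in the asparaginase males of 8 weeks. Of 22 markers of sinusoidal endothelium, 10 fell and 1 rose (Bmp2), with a median of -0.41; 4 fell without 8-week replicate 2, and 3 fell in a fit of the 6 PBS libraries alone. The number that rose was 0 or 2 in 13 of the 18 fits that left out 1 library, and the Bmp2 call was lost in 12 of them and in the 6 libraries alone (adjusted p = 0.15). Stab2, a scavenger receptor, fell from 65.2, 89.2 and 96.7 CPM to 37.8, 39.6 and 49 CPM (2-fold lower, adjusted p = 4.4e-04).

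Many antigen presentation genes rose. Of 40 antigen presentation and interferon genes, 21 rose and 1 fell (Irf8), with a median of 0.58. The number that rose was 12 without 2-week replicate 2, 2-week replicate 3 or 8-week replicate 2 and 13 without 8-week replicate 1. In the test of sex, 11 of the 40 were higher in 8-week females, against 4.19% of all genes tested. That test depended on 8-week asparaginase replicate 1, as given below. Cd74, the invariant chain of class II molecules, stood at 16.9, 19.7 and 19.98 CPM at 2 weeks and 113, 49.1 and 81.9 CPM at 8 weeks (1.90 ± 0.20, adjusted p = 5.1e-05). The pups were alike, every adult was above them, and the male was the lowest adult. The class II genes H2-Aa, H2-Ab1 and H2-Eb1 rose by 1.77 ± 0.24, 1.87 ± 0.22 and 1.80 ± 0.25. Summed markers of macrophages were 684, 771 and 911 CPM at 2 weeks and 923, 559 and 806 CPM at 8 weeks, and those of B and plasma cells were 14.4, 23.2 and 23.1 CPM and 43, 12 and 29.6 CPM. Their part in the class II rise was not tested. Of 22 macrophage genes 0 rose and 4 fell (2 without 2-week replicate 3 or 8-week replicate 2), against 13.8% and 16.1% of all genes tested. Clec4f, which defines Kupffer cells, did not pass the test (-0.01 ± 0.19, adjusted p = 0.97), while the scavenger receptor gene Marco fell from 27.5, 42.9 and 52.2 CPM to 11, 4.04 and 9.19 CPM (-2.66 ± 0.32).

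Markers of blood formation were mostly lower. The shares over all genes tested were 13.8% that rose and 16.1% that fell. Of 17 erythroid genes 7 fell and 2 rose, with a median of -0.96 and sums of 1749, 1481 and 858 CPM at 2 weeks and 626, 622 and 592 CPM at 8 weeks. Without the 2 pup libraries that held transcripts of both sexes, the median was -0.28. The remaining pup, replicate 3, lay nearer to the adults, with a median position of 72.4% over 7 erythroid genes lower at 8 weeks. Car2, the carbonic anhydrase of red cells and other tissues, fell from 28.8, 28 and 33.8 CPM to 10.1, 4.77 and 8.59 CPM (-2.15 ± 0.14, adjusted p = 1.3e-06), and Slc4a1, the anion exchanger of red cells, by 3.19. The beta-globin gene Hbb-bs fell by 1.34, a call lost without 2-week replicate 1 (adjusted p = 0.068), 2-week replicate 2 (adjusted p = 0.055) or 8-week replicate 2 (adjusted p = 0.12). Car1 and Alas2 were higher at 8 weeks with all libraries, Alas2 highest in the male. The Car1 call was lost in 8 of the 18 fits that left out 1 library, with a log2 difference of 0.90 without 8-week replicate 2. With no sex term, or in a fit of the 6 PBS libraries alone, both calls were lost (adjusted p = 0.054 and 0.098 for Car1, 0.18 and 0.11 for Alas2), which left 0 risers. Of 15 granulocyte genes 9 fell and 1 rose (5 fell without 8-week replicate 2), with Ngp, of neutrophil granules, at 0.77, 1.38 and 2.5 CPM and 0.0319, 0.0331 and 0.0999 CPM (-4.86 ± 0.72), and Ltf, of the same granules, falling by 3.89. Of 8 megakaryocyte genes 4 fell (2 without 8-week replicate 2), of 24 T and NK cell genes 5 fell and 1 rose (2 fell without 8-week replicate 2), of 15 B cell genes 1 fell (0 to 2 without 1 library), and of 15 bile duct genes 4 fell and 1 rose (2 fell without 2-week replicate 3 or 8-week replicate 2, and the riser, Aqp1, was lost without any of 6 libraries). Zap70, a kinase of T cell signalling, was the riser among T and NK genes (2.66 ± 0.39).

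Transcripts of neighbouring tissues differed between libraries and ages. The sum over 23 pancreatic acinar genes was 203, 254 and 99.7 CPM in the 2-week livers and 11.8, 10.1 and 10.6 CPM in the 8-week livers, with 6 genes lower at 8 weeks, between 1 and 17 when 1 library of any group was left out (lowest without 8-week replicate 1 or 3, highest when the PBS replicate 1 or the asparaginase replicate 3 of 16 weeks was the one omitted) and 21 by DESeq2. It was 13.2, 705 and 801 CPM in the 16-week PBS livers. Amylase and Reg1, both acinar, were among the largest falls of all: 4 near-identical amylase copies, Amy2a2 to Amy2a5, each stood at 89.7, 106 and 69.9 CPM and 0.478, 0.133 and 0.2 CPM, differing by at most 0.0794% in any PBS library of these ages. Their calls were lost without 8-week replicate 1 or 3 (adjusted p up to 0.059), and that of Reg1 in 5 of the 18 fits that left out 1 library (adjusted p up to 0.091) and with no sex term (adjusted p = 0.063). Skeletal muscle, by 19 genes, summed to 35.9, 418 and 129 CPM at 2 weeks and 999, 474 and 1301 CPM at 8 weeks, and 3 genes rose (12 without 2-week replicate 2, 5 without 2-week asparaginase replicate 1, 0 without 2-week replicate 3 or 8-week replicate 2, and 1 without 2-week replicate 1 or 8-week replicate 3). Of 18 squamous epithelium genes 0 changed by edgeR, with 1 to 3 lower by DESeq2 or without 2-week replicate 1, 8-week replicate 2 or 8-week asparaginase replicate 3 and 9 without 8-week asparaginase replicate 2. Of 10 adipose genes 1 rose and 2 fell, and of 6 gut genes 1 rose, both counts moving with single libraries. Ribosomal protein genes passed the test in no case with all libraries: 0 of 52 rose and 0 fell (2 without 8-week replicate 1), with a median of 0.01.

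Several of these counts and calls depended on the sex term and on the libraries fitted. In a fit of the 6 PBS libraries alone, which called 1700 genes, the number that rose was 11 in place of 19 for fatty acid synthesis, 15 in place of 32 for conjugating enzymes, 5 in place of 12 for cytochromes P450, 7 in place of 14 for bile acid genes, 3 in place of 9 for transcription factors, 6 in place of 10 for urea cycle and amino acid breakdown, 5 in place of 8 for iron handling and 2 in place of 5 for sugar metabolism. The number that fell in that fit was 10 in place of 16 for imprinted genes and 4 in place of 8 for the growth hormone axis, but 41 in place of 43 for the cell cycle. The major urinary proteins had 19 risers in place of 20. Further calls lost in that fit were Slc38a4, Egfr, Ghr, Ahr, Cebpa, Nr1i2, Nr1i3, Ahsg, Azgp1, Cyp3a11, Fasn, Ebp, Acadl, Bdh1, Tdo2, Cyp2f2, Irf8, Aqp1, Cux2, Cyp2b9, Cyp2b13, Cyp2d9 and Hao2 (adjusted p between 0.0502 and 0.86). With no sex term, which gave 3573 calls, those lost were Egfr, Ahr, Nr1i3, Slco1a4, Bdh1, Irf8, Cux2, Cyp2b9, Cyp2b13, Cyp2d9 and Hao2 (adjusted p between 0.055 and 0.91). Without the 2 pup libraries that held transcripts of both sexes, the calls of Ahr, Nr1i2, Nr1i3, Cyp8b1, Slco1a4, Aqp1, Hbb-bs and Reg1 (adjusted p between 0.051 and 0.64) were lost.

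Leaving out 1 PBS library moved some fold changes by more than 1.5 times without ending the call. Without 2-week replicate 1 the log2 differences were 4.6 for Pigr, 7.71 for Slc10a2, 3.46 for Zap70 and -8.95 for Igf2. Without the 8-week male, replicate 2, they were 7.94 for Slco1a1, -4.02 for Lpl, 9.85 for Mup5, 9.41 for Cyp4a12a, 5.99 for Elovl3, -2.66 for Cyp2b9 and -4.52 for Ltf. Without 8-week replicate 1 they were -9.87 for Sult2a1, -8.22 for Sult2a2, -9.52 for Sult2a4 and -9.53 for Sult2a5, and without 8-week replicate 3 they were 5.63 for Slco1a1, -6.30 for Sult2a4, -6.49 for Sult2a5, -4.79 for Ccnb1, -5.47 for Ngp and 7.90 for Cyp4a12a. H19 stood at -6.07 without 2-week replicate 3 and Cyp4a12a at 9.48 without 2-week replicate 2.

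The sexes differed at 8 weeks, and no difference between them was fitted at 2 weeks. By the sex term fitted to the 6 livers of 8 weeks, PBS and asparaginase, 679 genes (4.19%) were higher in females and 386 (2.38%) in males, with edgeR's adjusted p under 0.05. The counts were 15 and 24 when the asparaginase replicate 1 of 8 weeks, 1 of only 3 females, was left out. That library held 5.39% major urinary protein counts, against 37.4% and 23.5% in the asparaginase males of 8 weeks. Its skeletal muscle sum was 3482 CPM, against 586 and 260 CPM, and its squamous epithelium sum 937 CPM, against 489 and 13.8 CPM. The part of other tissue in the sex counts was not tested. The sex counts were 298 and 130 when the PBS male was left out and 731 and 1082 without PBS replicate 3. Without either asparaginase male (replicates 2 and 3) they were 212 and 150 and 262 and 190. Of the 4842 genes that changed with age, 585 also differed by sex. Among genes at least 2 log2 units apart between the sexes and at 5 CPM or more, 36 were higher in females and 26 in males. Of the 26 male-biased genes, the 2-week level was nearer to the adult females in 22. Their median log2 difference from 2 weeks was 3.72 in the adult male and 0.63 in the adult females. Of the 36 female-biased genes the 2-week level was nearer to the females in 21 and to the male in 15. Their medians were 0.80 in adult females and -1.87 in the adult male. These classes were chosen on the adult livers that the medians use, so the differences between the sexes are a description.

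The male-biased genes named here were lower in all 3 pups than in the adult male. Cyp4a12a, an arachidonic acid hydroxylase, stood at 0.0296, 0.57 and 0.278 CPM at 2 weeks and 10.5, 501 and 28.6 CPM at 8 weeks, a difference from 2 weeks of 5.76 ± 0.97 in adult females and 11.39 ± 1.16 in adult males. Elovl3, a fatty acid elongase, stood at 1.39, 0.57 and 0.916 CPM and 3.89, 206 and 5.49 CPM (2.07 ± 0.49 and 8.23 ± 0.58). Cyp2d9, a steroid hydroxylase, stood at 135, 104 and 75.2 CPM and 143, 1164 and 149 CPM and passed the test in males (3.78 ± 0.30) but not in females (0.35 ± 0.24, adjusted p = 0.32), with a sex term of -3.43 ± 0.27. The female-biased genes named here differed in their course. Cyp2b9 stood at 289.6, 302 and 269.5 CPM in pups and at 369, 0.53 and 283 CPM in adults. The females did not pass the test against pups (-0.14 ± 0.65, adjusted p = 0.89), and in the male it was almost gone (-7.22 ± 1.06, adjusted p = 3.5e-04). Cyp2b13, its neighbour, stood at 73.9, 45.6 and 37.5 CPM and 214, 0.133 and 118 CPM, rising by 1.55 ± 0.32 in females and changing by -7.22 ± 0.52 in males, so its even mix of -2.83 ± 0.36 describes neither sex. Hao2, a peroxisomal oxidase, stood at 68.5, 76.3 and 84.4 CPM and 21.2, 0.0662 and 12.4 CPM and fell in both sexes, by far more in the male. A1bg, a plasma glycoprotein, stood at 3.23, 0.163 and 0.139 CPM and 68.2, 0.166 and 57.5 CPM, rising in females (5.75 ± 0.74) while the male did not pass the test (-2.55 ± 1.11, adjusted p = 0.10). Cux2, a repressor known to keep male genes low in female liver, stood at 12.2, 17.8 and 18.3 CPM in pups and 3.86, 0.364 and 9.12 CPM in adults, with a sex term of 3.92 ± 0.42 (adjusted p = 3.0e-04).

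**Figure D5:**
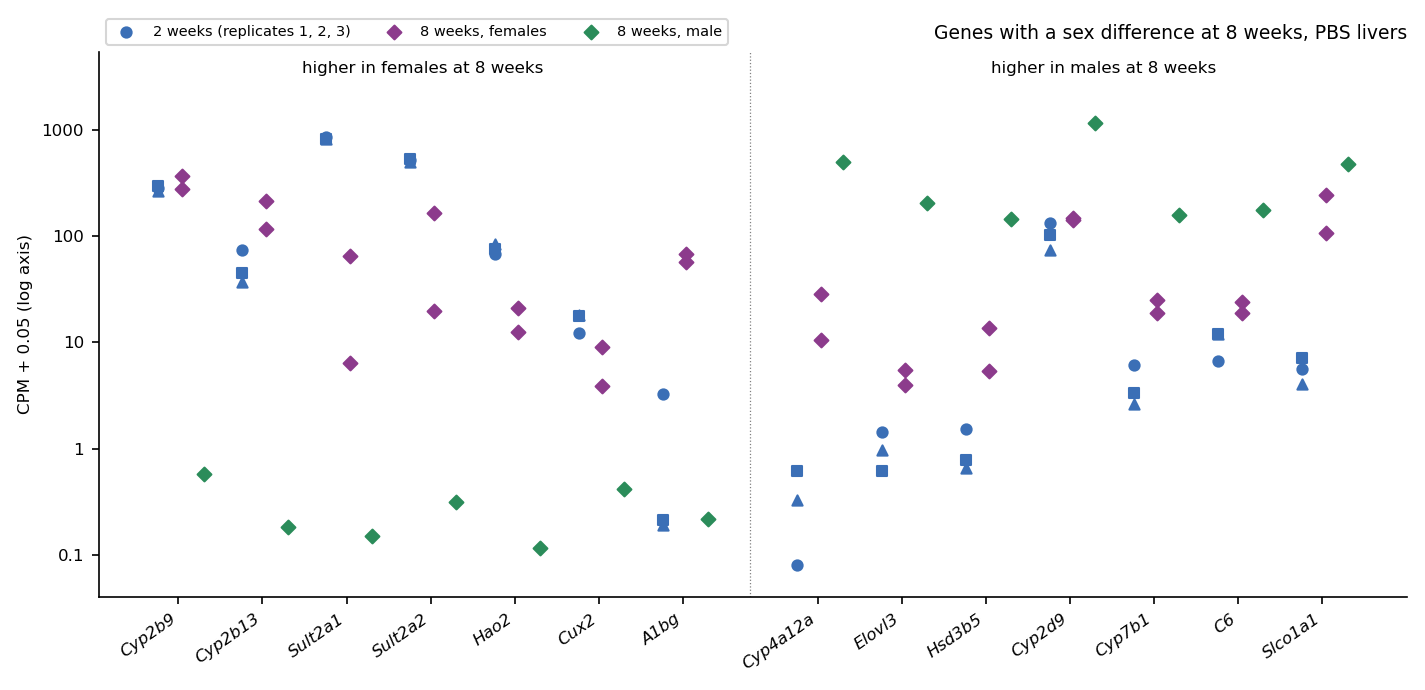
Level of 7 genes higher in females (left) and 7 higher in males (right) at 8 weeks, as CPM + 0.05 on a log axis, with blue symbols for the 3 pups, purple for the 2 adult females and green for the adult male. For Cyp2b9 the pups (270 to 302 CPM) lie with the adult females, and for Cyp2d9 (75.2 to 135 CPM) just under them, while the adult male differs in opposite directions.

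The same interval was compared in the asparaginase livers, whose libraries are separate from the PBS ones. The age difference differed between the treatments for 0 of 16213 genes (0%) by edgeR, with 1461 at an unadjusted p under 0.05 and a smallest adjusted p of 0.090. DESeq2 called 82 genes and limma-voom 0, and edgeR called 20 when the asparaginase replicate 3 of 8 weeks was left out and 2 when the PBS replicate 1 of 8 weeks was. Ugt3a1 had the smallest p. Its asparaginase levels were 26.7, 26.9 and 28.1 CPM at 2 weeks and 57.1, 88.4 and 82.4 CPM at 8 weeks, and the difference between the age effects, asparaginase minus PBS, was -0.98 ± 0.15. For Hamp the asparaginase levels were 98.9, 7.14 and 12.1 CPM and 271, 387 and 295 CPM, with a difference between the age effects of -5.00 ± 1.06 (adjusted p = 0.29).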

How the data were processed

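Polyadenylated RNA from mouse liver was sequenced by the authors, who deposited 1 table of gene counts for 18 libraries and 37315 genes. The tools listed, per the submitters' processing notes, are DESeq2, TopHat and TopHat2 2.0.9, and the builds listed are mm10 and GRCm38, without the role of each. For the counter, its annotation and its handling of strand and shared reads, the answer is not given in the sources used here. From the deposited counts, edgeR 4.0.16 (R 4.3.3) kept 16213 genes by filterByExpr (minimum count 10, minimum total 15), scaled libraries by TMM and fitted a quasi-likelihood model to all 18 libraries. It had 1 term per group and a sex term (male 0.5, female -0.5) within 8 and within 16 weeks, with 10 residual degrees of freedom. A gene was called at a Benjamini-Hochberg adjusted p under 0.05 over all genes tested, which is the source of each adjusted p except where a sentence names another tool. The SE is the absolute log2 fold change over the root of the F statistic. No columns were identical (0 pairs). Positions and symbols came from GENCODE M21, which matched 35533 identifiers, and promoters from RefSeq.

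Of 1133 entries in 38 hand-written gene lists, 1122 were matched. Lists were described by counts and medians, with no test of a list. The comparison, the lists and the genes were chosen with earlier results of these data known. Named genes were taken from 260 that a rule gave: the 12 largest changes each way among called genes without overlap and at 5 CPM or more, the 8 largest differences in CPM each way, the 4 list members of smallest p each way, a set of fixed anchors, pairs of isozymes, and the 8 smallest p values each way for sex and for the difference between treatments. Some genes that this rule gave are not reported here. The uncalled members named without values, and the members of lists with few calls, were named after their values were seen. Of the 260, 63 overlap exons of another gene (18 on the same strand, 54 on the opposite strand). The counts carry sampling error, and floors and ratios cover counting error only. On counts simulated from the fitted means and spread, with 200 changed genes, the age test made calls at this sample size. That simulation had far fewer changed genes than were called here and no library that stood apart. It therefore does not measure the error of the calls in these data. Alternatives were DESeq2 1.42.0, limma-voom (limma 3.58.1), other scalings, no filter, other sex terms, fewer libraries, stricter thresholds and, chosen after seeing the data, 8-week females or males alone and a 2-fold minimum.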

Additional observations from a re-analysis of the deposited data

Results flagged for a closer look

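The difference between 8 and 2 weeks was not the same for adult females and adult males. Because both share the 2-week livers, the test of that difference is the sex term at 8 weeks, and 1065 genes passed it by edgeR's quasi-likelihood test with Benjamini-Hochberg adjustment. Leaving out a female moved this number to 39 (asparaginase replicate 1 of 8 weeks) or 1813 (PBS replicate 3 of 8 weeks). Elovl3 is an example, with a sex term (female minus male) of -6.16 ± 0.51 (adjusted p = 3.5e-05), lower in each female than in each male library of 8 weeks. Cyp2b13 is the opposite case (8.77 ± 0.47, adjusted p = 5.8e-07).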

How the results depend on the processing

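No paired analysis was possible because the labels give no numbers that link mice across groups. The numbers of genes that changed, rose and fell between 2 and 8 weeks (4842, 2232 and 2610) were 1700, 662 and 1038 in a fit of the 6 PBS libraries alone, 2494, 1105 and 1389 at an adjusted p under 0.01, and 1911, 572 and 1339 with a 2-fold minimum. Leaving out 1 library gave 2958 to 5646, 1243 to 2649 and 1581 to 2997. The sex counts (1065 in all, 679 and 386) were 1642 in all and 706 male-biased with DESeq2, 170, 101 and 69 at an adjusted p under 0.01, and 39 to 1813, 15 to 883 and 24 to 1082 when 1 library was left out. The difference between treatments (0 genes) gave 82 with DESeq2 and 0 to 20 when 1 library was left out. Upper-quartile scaling moved the median of all genes to -0.11 and the split to 1618 higher and 3214 lower. Against the 2-week livers, 8-week females reversed Cyp2b13 (1.56). DESeq2 called 4916 genes, 4564 of them shared with the same direction, and of the alternatives run only that with 8-week females called a shared gene (1) in the opposite direction. The cause of these shifts was not tested, beyond the fewer genes or libraries that a stricter rule or a smaller fit admits. Depth limits genes near the count minimum of 10.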

Other observations

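Pairs of isozymes in which one form is known from growing or fetal tissue and the other from adult liver did not switch as a rule. Of 22 genes in such pairs 6 rose and 7 fell. Both partners moved in opposite directions for Cyp3a16 and Cyp3a11, given above.

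Of 28 genes of the response that amino acid shortage induces, 6 fell and 2 rose between the ages in PBS livers. Over all genes tested, 16.1% fell and 13.8% rose. The count that rose was 1 without 2-week replicate 2, 2-week replicate 3 or 8-week replicate 1, and 4 without 8-week replicate 2. The count that fell was 3 with no sex term and 3 in a fit of the 6 PBS libraries alone. Asns, asparagine synthetase, stood at 3.47, 3.93 and 3.69 CPM at 2 weeks and 0.893, 3.94 and 0.924 CPM at 8 weeks. The male lay with the pups and both females lower (-0.98 ± 0.24, adjusted p = 0.0081), and the call was lost with no sex term (adjusted p = 0.22) and in the 6 libraries alone (adjusted p = 0.26). Psat1 and Phgdh, of serine synthesis, fell by 1.79 and 2.06, the Phgdh call being lost in the same 2 fits (adjusted p = 0.0602 and 0.067).

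The 16-week PBS livers give a later point, with no test made here. In the 16-week PBS livers, Scd1 stood at 1917, 739.5 and 1939 CPM, under all 3 livers of 8 weeks and, in 2 of the 3, above all 3 livers of 2 weeks. Cyp3a11 stood at 1863, 1677 and 3562 CPM, under all 3 livers of 8 weeks and within the range of the 3 livers of 2 weeks. Its higher level at 8 weeks was thus not seen at 16 weeks. Hamp stood at 374, 289 and 461 CPM, Pigr at 1075, 1055 and 966 CPM, Igfbp1 at 67.2, 40.1 and 31.9 CPM and Afp at 1.77, 2.34 and 0.91 CPM.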
